A study of Mus musculus with 20 samples.

Results

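The genes described here serve the defence against oxidants and metal ions in CD4 T cells. They are Nfe2l2 and Keap1 of the Nrf2 pathway, its targets Nqo1, Gclc, Gclm and Srxn1, the thioredoxin genes Txn1 and Txnrd1, and the metallothionein genes Mt1 and Mt2. They were taken by symbol, as rows of the deposited table of read counts, and all 10 were found among its 22068 gene rows. Of the 10, 9 passed the filter on low counts, which left 13309 genes for testing. Mt2 did not pass and is described by its counts alone.

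Nrf2, the protein of Nfe2l2, is a transcription factor that KEAP1 holds in the cytoplasm and hands over for degradation. Oxidants and electrophiles modify KEAP1, and Nrf2 then enters the nucleus, pairs with a small MAF protein and activates genes through antioxidant response elements. The products of its targets make glutathione, reduce thioredoxin and repair oxidised peroxiredoxins, which T cells use to keep peroxide and thiol redox state in bounds. Metallothioneins are small cysteine-rich proteins that bind zinc and copper, and the zinc-sensing factor MTF1 drives their genes through metal response elements.

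The series measured polyadenylated RNA in 20 libraries of CD4 T cells sorted from C57BL/6 mice with a Foxp3-GFP reporter. The mice were 8 to 12 weeks old, and cells came from their spleens and lymph nodes. Naive cells were GFP-negative and CD44-low, and were split into the 15% with the least and the 15% with the most surface CD5, here CD5lo and CD5hi. CD5 restrains T cell receptor signalling, and its level on naive cells tracks how strongly they react to self-peptide. Naive cells were processed directly (fresh) or kept for 22 hours in dissociated culture with interleukin 7 at 10 ng per mL, which took away their contact with self-peptide (rested). Regulatory T cells (Treg) were sorted as GFP-positive, without a stated gate on CD44 or CD5, and processed directly. Each of the 5 groups has 4 libraries that the labels call biological replicates, pooled from both sexes. The reads do not bear out such pools: each library carried either Y-linked reads or Xist at more than a trace, as given below. Loss of self-peptide, culture, interleukin 7 and elapsed time came together in the rested groups and cannot be told apart. The labels' cell type entries call the CD5hi and Treg samples CD5lo cells as well, so groups were taken from titles, sort gates and treatments.

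The promoter sequences of 4 members are shown, those of the regulator Nfe2l2 and of the 3 genes with counts above a trace in Treg alone. They are the 250 bases before the annotated RefSeq start in GRCm38.p6, printed 5′ to 3′ on the gene's strand. Nfe2l2 lies at chr2:75704664-75704913 (minus strand), Srxn1 at chr2:152105274-152105523 (plus), Mt1 at chr8:94178839-94179088 (plus) and Mt2 at chr8:94172368-94172617 (plus). Capitals mark the antioxidant response element core TGACNNNGC in Nfe2l2 and the AP-1 site TGACTCA in Srxn1. In Mt1 they mark TGCNCNC, a loose form of the metal response element core that is here called the metal core. In Mt2 they mark both the metal and antioxidant cores. The usual form of the metal response element core is TGCRCNC, where R is A or G. The loose form allows any base in place of R.
Nfe2l2: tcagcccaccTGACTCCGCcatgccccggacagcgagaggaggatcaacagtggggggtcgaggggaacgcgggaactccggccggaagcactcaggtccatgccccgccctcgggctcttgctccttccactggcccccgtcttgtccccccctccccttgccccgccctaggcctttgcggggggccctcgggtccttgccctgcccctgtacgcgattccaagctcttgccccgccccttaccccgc
Srxn1: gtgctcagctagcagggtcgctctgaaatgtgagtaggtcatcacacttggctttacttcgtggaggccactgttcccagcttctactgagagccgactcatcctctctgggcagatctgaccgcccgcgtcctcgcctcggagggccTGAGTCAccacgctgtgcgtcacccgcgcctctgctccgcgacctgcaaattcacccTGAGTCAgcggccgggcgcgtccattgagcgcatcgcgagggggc
Mt1: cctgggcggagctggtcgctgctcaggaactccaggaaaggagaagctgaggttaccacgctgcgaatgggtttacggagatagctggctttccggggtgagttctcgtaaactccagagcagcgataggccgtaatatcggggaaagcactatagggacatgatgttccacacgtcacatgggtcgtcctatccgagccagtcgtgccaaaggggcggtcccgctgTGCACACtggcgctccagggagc
Mt2: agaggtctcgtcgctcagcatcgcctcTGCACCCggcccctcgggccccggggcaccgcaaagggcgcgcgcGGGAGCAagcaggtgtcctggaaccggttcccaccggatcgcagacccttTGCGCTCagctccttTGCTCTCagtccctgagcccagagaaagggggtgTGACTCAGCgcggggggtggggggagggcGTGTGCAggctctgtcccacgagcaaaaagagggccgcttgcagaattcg

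All motifs were searched on both strands, so a match can read as its reverse complement, as TGAGTCA does in Srxn1. The antioxidant core occurred in 10.2% of 32851 RefSeq windows of this length, the metal core in 44.4% and the AP-1 site in 4.46%. Nfe2l2 held 1 antioxidant core, 240 bases before its start. Srxn1 held 2 AP-1 sites, 102 and 45 bases before its start, and 1 metal core at 19 bases that is not capitalised. Mt1 held 1 metal core, at 23 bases. Mt2 held 5 metal cores, the nearest at 50 bases, and 1 antioxidant core at 79 bases that overlaps an AP-1 site. The Mt2 metal cores at 178 and 113 bases have T in place of A or G, so they match the loose form alone. With the 50 bases after the start included, Srxn1 also held 1 antioxidant core and had 3 metal cores in all, Mt1 had 3 and Mt2 had 6. In such windows of 300 bases the antioxidant core occurred in 12.4% and the metal core in 51%. All counts and shares of the metal core are for the loose form, and TGCRCNC was not searched. The series holds no binding data, so these matches describe the sequence and are not sites shown to be used. Windows were found for 9 of the 10 members, all but Gclc. Of the other members, Gclm held 1 antioxidant core, as did 1 of the 3 promoters listed for Txnrd1. Keap1, Nqo1 and Txn1 held none in these 250 bases.

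Libraries held 38211406 to 64477566 counts. Levels are in CPM, counts scaled to a common library total after trimmed-mean-of-M-values (TMM) scaling, with the mean ± SD of a group's 4 libraries. Each change is a log2 fold change with its SE from edgeR's quasi-likelihood test, and a gene is called at a Benjamini-Hochberg adjusted p under 0.05. Cd4 and Lck were high in every library, at 680 CPM or more. Foxp3 averaged 722 ± 38 CPM in Treg and 22.3 to 28.6 CPM in the naive groups. The Treg markers Il2ra and Ctla4 were higher in rested than in fresh naive cells. Il2ra averaged 824 CPM in Treg, 2.93 and 1.64 in fresh CD5lo and CD5hi cells, and 108 and 88.6 in rested ones. Ctla4 averaged 422 CPM in Treg, 1.87 and 3.45 in fresh CD5lo and CD5hi cells, and 34.1 and 35.7 in rested ones. Sex went with the groups: every fresh naive library carried reads of Y-linked genes, whereas in each rested and Treg group replicate 3 was the sole such library and the other 3 expressed Xist. Sex did not differ between CD5lo and CD5hi cells of a state. In bulk RNA, fewer cells of a type and less RNA per cell cannot be told apart.

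The 10 genes moved along different lines. Nfe2l2 was much lower in Treg than in naive cells, while Srxn1, Mt1 and Mt2 were detected at more than a trace in Treg alone. Nfe2l2 did not pass the test on resting, which lowered Keap1 and raised Gclc, Txn1 and Txnrd1 in both CD5 groups. Between CD5hi and CD5lo cells, Txnrd1 was the sole member called, higher in CD5hi cells both fresh and rested, also with the replicate block, which called 2396 in place of 1524 genes in fresh and 1960 in place of 1092 in rested cells. In fresh cells this was 1 of 9 tested members, where 11.5% of all tested genes were called, 6.86% as higher and 4.59% as lower. In rested cells it was likewise 1 of 9, where 8.2% of all tested genes were called, 4.74% as higher and 3.46% as lower. In CD5lo cells resting gave 5 calls, 3 higher (26.9% of all genes) and 2 lower (27.3%). In CD5hi cells it gave 4 calls, 3 higher (26.2%) and 1 lower (26.2%). In Treg, 7 of 9 members were called against fresh CD5lo cells, 4 higher (29.2%) and 3 lower (29.4%). Against fresh CD5hi cells 8 were called, 4 higher (27.5%) and 4 lower (26.6%). Calls in either direction covered 54.3% and 52.4% of all genes for resting in CD5lo and CD5hi cells, and 58.5% and 54.2% for Treg. Resting thus called members at about the rate of all genes. Srxn1 and Mt1 passed the filter through the Treg libraries alone and so had to differ. Without them, 5 of 7 members were called in Treg against CD5lo cells and 6 of 7 against CD5hi cells. Counting instead the members whose 4 libraries in one group all lay beyond those of the other, CD5hi and CD5lo cells were apart in 1 of 9 when fresh (20.4% of all genes) and 2 of 9 when rested (10.3%). Rested and fresh cells were apart in 4 of 9 in both CD5lo (48.1%) and CD5hi cells (45.8%), and, without Srxn1 and Mt1, Treg in 6 of 7 against fresh CD5lo (56.5%) and 5 of 7 against fresh CD5hi cells (54%). Comparisons that use the same fresh libraries share them and are not independent.

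Whether the CD5hi-to-CD5lo difference itself changed on resting was tested as an interaction, which called 0 of the 9 members in edgeR and in DESeq2. In edgeR it called 60 of 13309 genes (0.451%), or 247 with same-numbered libraries of a state as a replicate block and 130 in DESeq2, and 1 member, Txn1, had an unadjusted p under 0.05. Txn1 changed by 0.25 ± 0.12 on the log2 scale (adjusted p = 0.76).

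**Figure D1:**
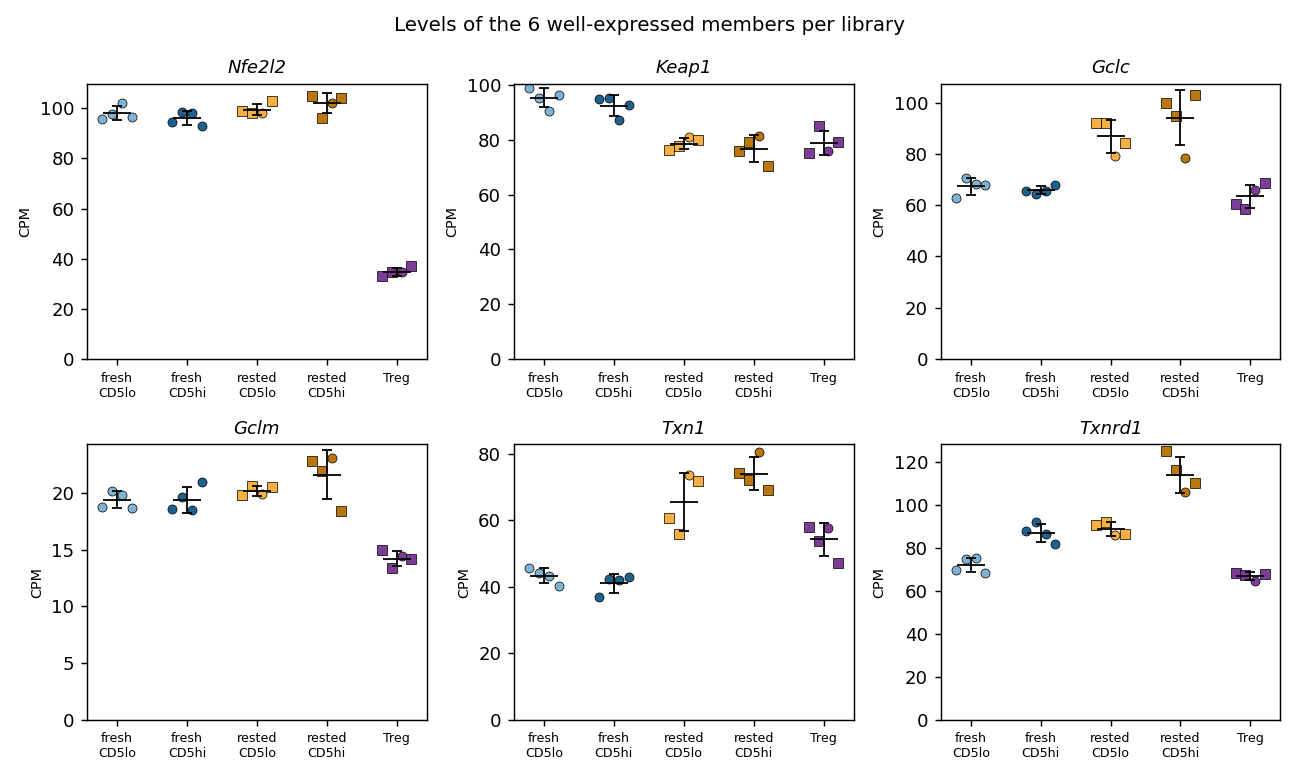
Levels (CPM, linear axes from 0) of the 6 members with over 10 CPM, by library. Circles are libraries with Y-linked reads, squares are libraries with Xist, and bars are the mean ± SD of 4 libraries. Nfe2l2 and Gclm are lowest in all 4 Treg libraries, Keap1 is lower in rested and Treg than in fresh naive libraries, and Txnrd1 is highest in rested CD5hi cells.

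Nfe2l2, the gene of the master regulator, had 95.8, 97.6, 102 and 96.6 CPM in fresh CD5lo libraries and 94.6, 98.6, 98 and 92.8 CPM in fresh CD5hi libraries. In rested CD5lo libraries it had 98.9, 98, 98.1 and 103 CPM and in rested CD5hi libraries 105, 95.9, 102 and 104 CPM. In Treg it had 32.9, 34.7, 34.5 and 36.9 CPM. The 4 naive groups overlapped, and every Treg library lay far below every naive library. The mean was 34.8 ± 1.63 CPM in Treg against 98 ± 2.81 in fresh CD5lo cells, a log2 fold change of -1.5 ± 0.05 (edgeR adjusted p = 3.8e-17). Against fresh CD5hi cells, at 96 ± 2.76 CPM, it was -1.47 ± 0.05 (adjusted p = 8.7e-17). The Treg library with Y-linked reads, replicate 3, was as low as the others. In the libraries with Y-linked reads only, which leave 1 Treg and 1 rested library per group and assume that it varies like the others, the change was -1.49 against CD5lo and -1.46 against CD5hi cells. Resting changed Nfe2l2 by 0.02 ± 0.04 in CD5lo cells (adjusted p = 0.72) and 0.08 ± 0.04 in CD5hi cells (adjusted p = 0.12).

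Keap1, which encodes the substrate adaptor that targets Nrf2 for degradation, was highest in fresh naive cells, with 90.6 to 99 CPM in fresh CD5lo libraries and 87.2 to 95.3 in fresh CD5hi libraries. It had 76.4 to 80.8 CPM in rested CD5lo, 70.3 to 81.5 in rested CD5hi and 75.1 to 84.9 in Treg libraries. The fresh naive libraries all lay above the other 12, and the rested and Treg groups overlapped. Resting changed Keap1 by -0.28 ± 0.05 in CD5lo cells (edgeR adjusted p = 0.00014) and -0.27 ± 0.05 in CD5hi cells (adjusted p = 2e-04). In the libraries with Y-linked reads only, the change was -0.22 in CD5lo cells (adjusted p = 0.019) and -0.17 in CD5hi cells, where the call was lost (adjusted p = 0.06). Treg differed by -0.28 ± 0.05 from fresh CD5lo cells (adjusted p = 0.00011) and by -0.23 ± 0.05 from fresh CD5hi cells (adjusted p = 0.00072). Thus Treg were lower in both genes, but unequally. The ratio of Nfe2l2 to Keap1 counts was 1.03 ± 0.0683 in fresh CD5lo, 1.04 ± 0.0583 in fresh CD5hi, 1.27 ± 0.0367 in rested CD5lo, 1.33 ± 0.121 in rested CD5hi and 0.442 ± 0.025 in Treg cells. Counts are not scaled by transcript length, so these ratios compare groups and not the levels of both genes. The rested libraries had the highest ratios, with 1.21 as their lowest value against at most 1.13 in fresh libraries, and Treg had the lowest.

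Gclc and Gclm encode the catalytic and the modifier subunit of glutamate-cysteine ligase, the rate-limiting enzyme of glutathione synthesis, and they did not move together. Gclc had 63, 70.8, 68.3 and 67.7 CPM in fresh CD5lo and 65.6, 64.3, 65.5 and 67.9 CPM in fresh CD5hi libraries. It had 92, 92, 79.2 and 84.1 CPM in rested CD5lo and 100, 94.8, 78.6 and 103 CPM in rested CD5hi libraries, and 60.4, 58.7, 66.1 and 68.5 CPM in Treg. All rested libraries were above all others, and the third replicate, the one with Y-linked reads, was the lowest of each rested group. Gclc rose on resting by 0.36 ± 0.07 in CD5lo cells (edgeR adjusted p = 0.00028) and 0.52 ± 0.07 in CD5hi cells (adjusted p = 5.4e-06). In libraries with Y-linked reads only the rise was smaller, at 0.25 in CD5lo cells (adjusted p = 0.0077) and 0.27 in CD5hi cells (adjusted p = 0.0042). Treg did not pass the test for Gclc, at -0.09 ± 0.07 against fresh CD5lo (adjusted p = 0.31) and -0.05 ± 0.07 against fresh CD5hi cells (adjusted p = 0.57). With sex as a covariate the first of these was -0.19 and was called (adjusted p = 0.046).

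Gclm ranged from 18.7 to 20.2 CPM in fresh CD5lo, 18.5 to 21 in fresh CD5hi, 19.8 to 20.6 in rested CD5lo and 18.4 to 23.1 in rested CD5hi libraries. In Treg it ranged from 13.4 to 15 CPM, below every naive library. Treg differed by -0.44 ± 0.07 from fresh CD5lo cells (edgeR adjusted p = 8.8e-06) and by -0.45 ± 0.07 from fresh CD5hi cells (adjusted p = 9.3e-06). Resting gave 0.06 ± 0.07 in CD5lo cells (adjusted p = 0.48) and 0.15 ± 0.07 in CD5hi cells (adjusted p = 0.069). The latter was called in 3 of 16 alternatives (adjusted p from 0.006 to 0.23), among them without rested CD5hi replicate 4, its lowest rested library (0.22, adjusted p = 0.006), and without fresh CD5hi replicate 4 (0.19, adjusted p = 0.037). The third was the fit on libraries with Y-linked reads (0.27, adjusted p = 0.033). The ratio of Gclc to Gclm counts was 3.48 ± 0.115 and 3.39 ± 0.157 in fresh CD5lo and CD5hi cells, 4.3 ± 0.314 and 4.43 ± 0.899 in rested CD5lo and CD5hi cells, and 4.46 ± 0.34 in Treg. Treg and rested cells thus both had high ratios, Treg with a lower Gclm and rested cells with a higher Gclc, except that rested CD5hi replicate 3, at 3.4, lay within the fresh range.

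Txn1 encodes thioredoxin, a small protein that reduces disulfides of other proteins, and had the largest rise on resting among the members called. It had 45.7, 44, 43.2 and 40.1 CPM in fresh CD5lo and 36.9, 42.4, 41.9 and 42.9 CPM in fresh CD5hi libraries. After resting it had 60.7, 55.7, 73.6 and 71.7 CPM in CD5lo and 74.2, 72.2, 80.6 and 69 CPM in CD5hi libraries, and Treg had 57.9, 53.8, 57.8 and 47.1 CPM. Every rested and every Treg library exceeded every fresh naive library. The rise on resting was 0.60 ± 0.08 in CD5lo cells (edgeR adjusted p = 5e-06) and 0.85 ± 0.09 in CD5hi cells (adjusted p = 3.8e-08). In libraries with Y-linked reads only it was 0.78 and 0.99. Treg were higher by 0.32 ± 0.08 than fresh CD5lo cells (adjusted p = 0.0024) and by 0.40 ± 0.08 than fresh CD5hi cells (adjusted p = 0.00039). Thioredoxin genes have processed copies in the genome, and the deposited counts do not show how shared reads were assigned.

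Txnrd1 encodes cytosolic thioredoxin reductase, the selenoenzyme that recharges thioredoxin with electrons from NADPH. Its levels were 69.8, 74.6, 75.2 and 68.4 CPM in fresh CD5lo and 87.9, 92.1, 86.2 and 81.9 CPM in fresh CD5hi libraries. They were 90.4, 92, 85.7 and 86.5 CPM in rested CD5lo and 125, 116, 106 and 110 CPM in rested CD5hi libraries. All CD5hi libraries exceeded all CD5lo libraries of the same state, and the rested CD5hi group stood above all others. The summed level of 5 CD8 T cell and NK cell markers, most of it Cd8b1, went the other way, at 30.4 to 35.8 CPM in fresh CD5lo against 8.55 to 9.34 in fresh CD5hi libraries, and 20.1 to 22.6 against 6.53 to 8.38 when rested. Cd8b1 had 31.1 ± 2.59 CPM in fresh CD5lo and 7.71 ± 0.579 in fresh CD5hi cells, where Cd8a had 0.949 ± 0.264 and 0.524 ± 0.217 CPM. The Cd8a mean was thus also lower in CD5hi cells, at a far lower level than Cd8b1. Nkg7 averaged 0.793 CPM in fresh CD5lo and 0.504 in fresh CD5hi cells, and 0.845 and 0.373 when rested. Klrb1c averaged 0.187 and 0.124 CPM when fresh, and 0.113 and 0.0325 when rested. The NK marker Ncr1 had at most 1 count over any naive group. The part of CD8 T cells and NK cells in the Txnrd1 difference was not tested. CD5hi cells were higher by 0.27 ± 0.05 when fresh (edgeR adjusted p = 0.0011) and by 0.37 ± 0.05 when rested (adjusted p = 6.2e-05), and the interaction, 0.09 ± 0.08, did not pass (adjusted p = 1). Resting raised Txnrd1 by 0.30 ± 0.05 in CD5lo cells (adjusted p = 7.9e-05) and 0.39 ± 0.05 in CD5hi cells (adjusted p = 3.1e-06). Treg had 68.1, 67.3, 64.3 and 67.9 CPM, below every naive library. Treg differed from fresh CD5hi cells by -0.38 ± 0.05 (adjusted p = 3.5e-06). The difference from fresh CD5lo cells was -0.11 ± 0.05 and did not pass (adjusted p = 0.096), though with sex as a covariate it was -0.18 and did (adjusted p = 0.015). Txn1 and Txnrd1 therefore both rose on resting, whereas in Treg Txn1 was higher and Txnrd1 was not. The ratio of Txn1 to Txnrd1 counts was 0.601 ± 0.0359 and 0.472 ± 0.0433 in fresh CD5lo and CD5hi cells, 0.741 ± 0.122 and 0.651 ± 0.0755 in rested CD5lo and CD5hi cells, and 0.81 ± 0.0875 in Treg.

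**Figure D2:**
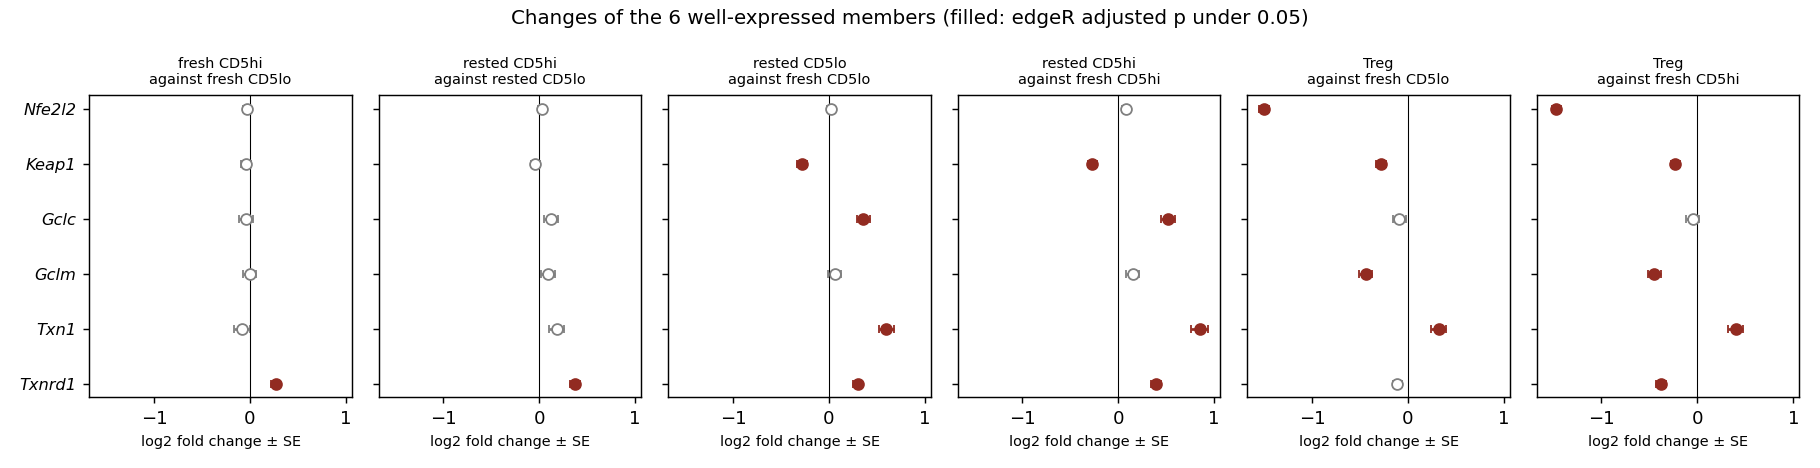
Log2 fold change (horizontal axes, ± SE) of the 6 members with over 10 CPM in 6 comparisons; filled points are called at an edgeR adjusted p under 0.05. Txnrd1 is the sole filled point in both comparisons of CD5hi with CD5lo cells, at 0.27 and 0.37, and Nfe2l2 in Treg, at -1.5 and -1.47, lies farthest from 0.

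Srxn1 encodes sulfiredoxin, which restores overoxidised peroxiredoxins. Its raw counts were 184, 112, 126 and 115 in the Treg libraries. They were 2, 1, 6 and 0 in fresh CD5lo, 0, 2, 8 and 2 in fresh CD5hi, 0, 2, 0 and 8 in rested CD5lo and 0, 4, 2 and 4 in rested CD5hi libraries. No naive library came near the lowest Treg library, and the naive groups overlapped at a trace. Treg averaged 2.58 ± 0.373 CPM, and no test is given for this gene, since it entered the fit through the Treg libraries alone. From summed counts, Treg had 62.9 times the level of fresh CD5lo cells (95% interval 32.9 to 138) and 44.9 times that of fresh CD5hi cells (25.5 to 87.5). Against rested CD5lo and CD5hi cells the ratios were 50.1 (27 to 105) and 46.6 (25.1 to 97.8). These intervals are exact binomial ones for counting error only. They are too narrow where both mates of a fragment were counted, and 13 of the 15 nonzero Srxn1 counts were even.

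Nqo1 encodes a quinone reductase and is a widely used readout of Nrf2 activity, yet it was scarce in all groups. Its counts were 9, 21, 8 and 19 in fresh CD5lo, 26, 5, 6 and 21 in fresh CD5hi, 14, 16, 8 and 11 in rested CD5lo, 34, 21, 18 and 29 in rested CD5hi, and 52, 23, 41 and 39 in Treg libraries. Treg had the highest mean, 0.742 ± 0.177 CPM, followed by rested CD5hi cells at 0.589 ± 0.239, fresh CD5hi at 0.282 ± 0.217, fresh CD5lo at 0.261 ± 0.119 and rested CD5lo at 0.259 ± 0.0839. Each group overlapped the next in this order. Treg were higher than fresh CD5lo cells by 1.5 ± 0.43 (edgeR adjusted p = 0.0052) and than fresh CD5hi cells by 1.4 ± 0.43 (adjusted p = 0.0093). The first call was lost in libraries with Y-linked reads only (1.56, adjusted p = 0.08). The second was lost there (1.45, adjusted p = 0.11) and with sex as a covariate (1.15, adjusted p = 0.07). All 4 rested CD5hi libraries lay above all rested CD5lo libraries, but the difference of 1.17 ± 0.46 did not pass (adjusted p = 0.14). Resting of CD5hi cells gave 1.04 ± 0.45 (adjusted p = 0.055) and was called in 5 of 15 alternatives, with adjusted p from 0.0088 to 0.65. Among these were the fits without fresh CD5hi replicate 1 (1.57, adjusted p = 0.0088), without rested CD5hi replicate 2 (1.17, adjusted p = 0.046) and without rested CD5hi replicate 3 (1.19, adjusted p = 0.039).

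**Figure D3:**
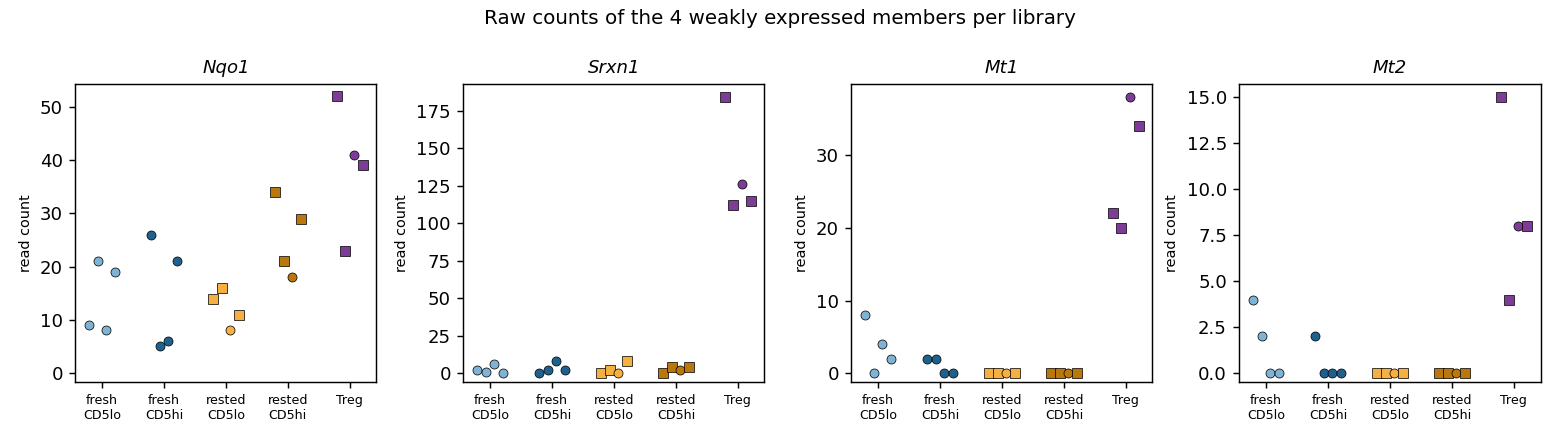
Raw read counts per library (linear axes) of the 4 members under 10 CPM in every group. Circles are libraries with Y-linked reads and squares those with Xist. Srxn1, Mt1 and Mt2 stand out in Treg, at 112 to 184, 20 to 38 and 4 to 15 counts, and both metallothionein genes are at 0 in all 8 rested libraries.

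The metallothionein genes were near the limit of detection in naive cells and present at a low level in Treg. Mt1 had 22, 20, 38 and 34 counts in Treg, 8, 0, 4 and 2 in fresh CD5lo and 2, 2, 0 and 0 in fresh CD5hi libraries, and 0 in all 8 rested libraries. A count of 0 over a rested group allows up to 0.0156 CPM in CD5lo and 0.0167 CPM in CD5hi cells, taking 3 counts over the group as the floor. All Treg libraries exceeded all naive libraries. Mt1 averaged 0.558 ± 0.185 CPM in Treg, and it too entered the fit through Treg alone, so no test of Treg is given. By summed counts Treg had 8.59 times the level of fresh CD5lo cells (4.91 to 16.2) and 28.6 times that of fresh CD5hi cells (10.9 to 107). With the floor of 3 counts in place of 0, the ratio of Treg was 35.4 to rested CD5lo and 33 to rested CD5hi cells. These floor ratios leave out counting error in Treg and the counting of both mates, so they are not lower bounds.

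Mt2 repeated this pattern at lower counts, with 15, 4, 8 and 8 in Treg, 4, 2, 0 and 0 in fresh CD5lo, 2, 0, 0 and 0 in fresh CD5hi and 0 in all rested libraries. The lowest Treg library and the highest fresh CD5lo library both had 4 counts, at 0.0847 and 0.0709 CPM. The summed-count ratio of Treg was 6.15 (2.56 to 17.9) to fresh CD5lo and 17.6 (4.51 to 151) to fresh CD5hi cells. With the floor of 3 counts in place of 0, it was 10.9 to rested CD5lo and 10.1 to rested CD5hi cells, again not lower bounds. Mt1 and Mt2 are close paralogs, so reads can be shared between them, and all 9 nonzero Mt1 counts and 6 of 7 nonzero Mt2 counts were even. Of the other family members, Mt3 averaged 0.0587 ± 0.0726 CPM in Treg and at most 0.00886 CPM in naive groups, and Mt4 had 0 counts in every library.

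Mt1 was called as lower in rested than in fresh CD5lo cells (edgeR adjusted p = 0.02), but the groups overlapped at 0. The ratio of fresh to rested cells was 4.12 at the floor of 3 counts, which is not a lower bound. The call was lost without fresh CD5lo replicate 1 (adjusted p = 0.064) and in libraries with Y-linked reads only (0.25), and the adjusted p ran from 0.0052 to 0.25 over 14 alternatives. Fresh CD5lo replicate 1 had 12 of the Mt1 and Mt2 counts, the most of any naive library, and also the highest summed level of 3 erythroid markers (Hba-a1, Hbb-b1 and Alas2), at 58.7 CPM. The erythroid sum was 26.8 to 58.7 CPM in fresh CD5lo, 16.7 to 39.7 in fresh CD5hi, 0.33 to 6.72 in rested CD5lo, 0.345 to 10.1 in rested CD5hi and 0.988 to 16.9 in Treg libraries, and no marker was at 0 in a whole group. Erythroid sums and Mt1 counts were both lower after resting. Within the fresh groups they did not always go together: fresh CD5hi replicate 3 had a sum of 29.4 CPM and 0 counts of Mt1 and Mt2. Of 6 myeloid markers, 5 were in the table. Their sum was 14.4 to 19.5 CPM in fresh naive, 5.41 to 9.01 in rested and 9.01 to 11.9 in Treg libraries. Cd74, which B cells and other antigen-presenting cells express highly, had 67.9 ± 2.62 CPM in Treg and group means of 5.81 to 7.3 CPM in naive cells. The part of these cells in the metallothionein and Srxn1 values was not tested.

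Around the members, 72 other genes of the same pathways were followed in 6 lists, of which 68 were tested. In fresh CD5hi cells 6 were higher (6.86% of all genes) and 3 lower (4.59%) than in fresh CD5lo cells. When rested, 4 were higher (4.74%) and 2 lower (3.46%). Resting raised 35 (26.9%) and lowered 11 (27.3%) in CD5lo cells, and raised 34 (26.2%) and lowered 11 (26.2%) in CD5hi cells. In Treg 24 were higher (29.2%) and 18 lower (29.4%) than in fresh CD5lo cells. Against fresh CD5hi cells 20 were higher (27.5%) and 21 lower (26.6%). In either direction the shares of all genes were 11.5% and 8.2% for CD5, 54.3% and 52.4% for resting, and 58.5% and 54.2% for Treg. These shares also belong beside the counts of single lists below. The interaction called 0 of the 68 (0.451% of all genes).

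**Figure D4:**
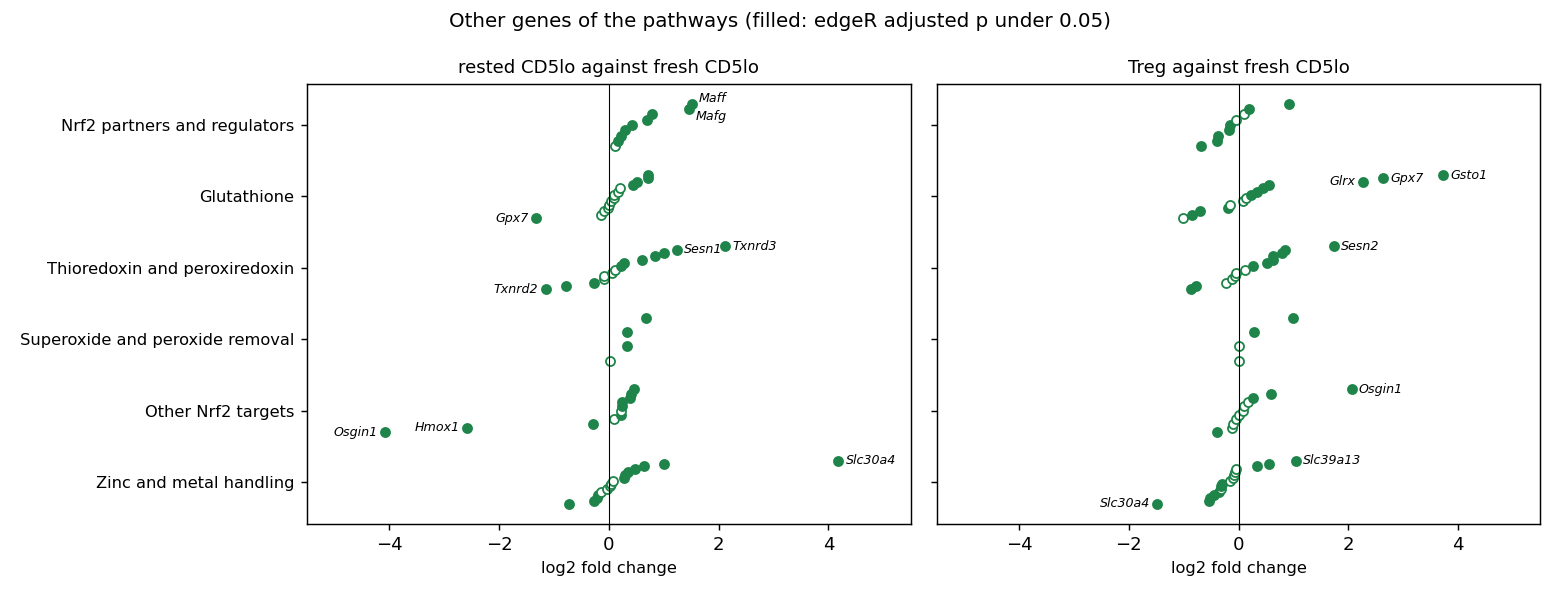
Log2 fold change (horizontal axis) of the tested genes of 6 pathway lists, in rested against fresh CD5lo cells (left) and Treg against fresh CD5lo cells (right). Filled points are called at an edgeR adjusted p under 0.05, and called genes past 1 are named. Slc30a4, at 4.18, and Osgin1, at -4.07, lie at the ends of the resting panel, and Gsto1, at 3.73, leads in Treg.

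The partners and regulators of Nrf2 rose on resting, while Nfe2l2 itself did not pass. Of 9 such genes, 8 were higher in each CD5 group and none lower, with a median change of 0.43 in CD5lo and 0.41 in CD5hi cells against -0.01 and 0 over all tested genes. Mafg, a small MAF partner, went from 4.75 ± 0.631 to 13.1 ± 0.821 CPM in CD5lo cells (1.46 ± 0.11) and rose by 1.81 ± 0.11 in CD5hi cells. Maff, another small MAF gene, rose by 1.51 ± 0.19 and 1.77 ± 0.19. Bach1 and Bach2, whose proteins compete with Nrf2 for the small MAFs and repress through the same elements, rose by 0.70 ± 0.05 and 0.79 ± 0.09 in CD5lo cells and by 0.69 ± 0.05 and 0.63 ± 0.09 in CD5hi cells. Genes with opposite roles thus rose together. In Treg 2 of the 9 were higher and 5 lower than in fresh CD5lo cells, and 1 higher and 4 lower than in fresh CD5hi cells. Bach2 changed by -0.68 ± 0.09 and -0.65 ± 0.09 in these comparisons, Mafk by -0.38 ± 0.07 and -0.46 ± 0.07 and Bach1 by -0.40 ± 0.05 and -0.25 ± 0.05, and Mafg was higher by 0.92 ± 0.11 and 1.20 ± 0.11.

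Other targets of Nrf2 split. Of 11 tested genes, 6 rose and 3 fell on resting in CD5lo cells, and 5 rose and 3 fell in CD5hi cells. Ftl1, the ferritin light chain gene, rose by 0.46 ± 0.06 and 0.50 ± 0.06 in CD5lo and CD5hi cells, and G6pdx, which supplies NADPH through the pentose phosphate pathway, by 0.41 ± 0.06 and 0.39 ± 0.06. Hmox1, the gene of heme oxygenase 1, fell from 3.16 ± 0.517 to 0.528 ± 0.146 CPM in CD5lo cells (-2.59 ± 0.21; edgeR adjusted p = 1.6e-09) and fell by 1.71 ± 0.20 in CD5hi cells. Osgin1, an oxidant-induced growth inhibitor gene, fell from 6.66 ± 1.46 to 0.394 ± 0.304 CPM in CD5lo cells (-4.07 ± 0.38) and fell by 3.48 ± 0.36 in CD5hi cells. Hmox1 and Osgin1 therefore went against Txn1, Txnrd1 and Gclc on resting. Hmox1 is abundant in macrophages, and Csf1r, a macrophage marker, had 3.58 to 5.43 CPM in fresh and 0 to 0.136 CPM in rested CD5lo libraries. The other myeloid markers fell less in CD5lo group means. Emr1 went from 1.31 to 0.1 CPM, Lyz2 from 1.94 to 0.482, Itgam from 5.65 to 3.65 and Cd68 from 2.82 to 2.32. In Treg, Csf1r had 1.54 ± 0.235 CPM and Hmox1 3.04 ± 0.345 CPM. The part of macrophages in the Hmox1 change was not tested. In Treg 3 of the 11 were higher in each comparison, and 1 and 2 were lower than in fresh CD5lo and CD5hi cells. Osgin1 stood at 27.8 ± 2.79 CPM in Treg, higher by 2.06 ± 0.28 and 2 ± 0.28, and Tkt, the transketolase gene, was higher by 0.60 ± 0.05 and 0.44 ± 0.05.

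Beyond the ligase genes, 14 glutathione genes were tested. On resting 4 were higher and 1 lower in each CD5 group. Gpx4, whose product reduces lipid peroxides, rose by 0.71 ± 0.15 in CD5lo and 0.61 ± 0.15 in CD5hi cells. In Treg 7 were higher and 3 lower than in fresh CD5lo cells, and 6 higher and 4 lower than in fresh CD5hi cells. Gsto1, an omega-class glutathione transferase gene, followed CD5 as well: it had 2.81 ± 0.293 CPM in fresh CD5lo, 8.29 ± 0.884 in fresh CD5hi and 37.3 ± 1.97 in Treg cells. CD5hi cells exceeded CD5lo cells in Gsto1 by 1.56 ± 0.16 when fresh (edgeR adjusted p = 2e-07) and by 1.22 ± 0.15 when rested (adjusted p = 8.8e-06). Glrx, the glutaredoxin 1 gene, was higher in Treg by 2.27 ± 0.08 and 2.49 ± 0.08 than in fresh CD5lo and CD5hi cells. Gss, which encodes the second enzyme of glutathione synthesis, was lower, as Gclm was, with changes of -0.84 ± 0.09 and -0.73 ± 0.09. Gsto1 and Glrx were thus higher in Treg while Gclm and Gss were lower, and Gclc did not pass the test. The rest of the list went both ways in Treg. Gpx4 changed by 0.55 ± 0.15 and 0.59 ± 0.15 against fresh CD5lo and CD5hi cells, and Glrx2 by -0.19 ± 0.08 and -0.22 ± 0.08. Mgst3 changed by -0.71 ± 0.20 against fresh CD5lo cells, and Gpx1 did not pass in either comparison.

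Of 14 thioredoxin and peroxiredoxin genes, 7 rose and 3 fell on resting in each CD5 group. Txnrd3, a reductase best known from testis, rose from 3.18 ± 0.327 to 13.8 ± 1.23 CPM in CD5lo cells (2.12 ± 0.10) and by 1.66 ± 0.10 in CD5hi cells. Txnrd2, the mitochondrial reductase gene, changed by -1.15 ± 0.23 and -1.19 ± 0.23, so the 3 reductase genes did not change alike. Sesn1, a sestrin gene, rose by 1.24 ± 0.05 and 1.21 ± 0.05, and Prdx4, the peroxiredoxin gene of the endoplasmic reticulum, by 1 ± 0.11 and 1.07 ± 0.11. In Treg 7 were higher and 2 lower than in fresh CD5lo cells, and 5 higher and 3 lower than in fresh CD5hi cells. Sesn2 was higher by 1.73 ± 0.18 and 1.46 ± 0.17, and Msra, a methionine sulfoxide reductase gene, differed by -0.86 ± 0.07 and -0.79 ± 0.07. Txnip, whose product binds and inhibits thioredoxin, was lower in fresh CD5hi than in fresh CD5lo cells (-0.36 ± 0.08; edgeR adjusted p = 0.0061), where Txnrd1 was higher. Of the 4 genes of superoxide and peroxide removal, Sod1, Sod2 and Ccs rose on resting in both CD5 groups. Ccs, the copper chaperone of SOD1, had 34.4 ± 1.57 CPM in fresh CD5lo and 45.1 ± 2.12 in fresh CD5hi cells (0.39 ± 0.09; adjusted p = 0.0043). In Treg, Sod1 and Ccs were higher in both comparisons. Cat, the catalase gene, did not pass in any of them, with group means from 85.3 to 90.6 CPM.

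Among 16 tested genes of zinc and metal handling, 7 rose and 4 fell on resting in each CD5 group. Slc30a4, which encodes a zinc exporter, had 27 to 31.7 CPM in fresh CD5lo libraries and 457 to 633 in rested CD5lo libraries. In CD5hi libraries it had 23.2 to 25.7 CPM when fresh and 301 to 368 when rested. The changes, 4.18 ± 0.09 (edgeR adjusted p = 7.4e-19) and 3.79 ± 0.09 (adjusted p = 4.4e-18), were the widest of the 68 tested list genes in each resting comparison. Slc39a10, a zinc importer gene, rose by 1 ± 0.06 in CD5lo and 0.96 ± 0.06 in CD5hi cells. Slc30a1, an exporter gene that MTF1 is known to induce along with the metallothioneins, changed by -0.72 ± 0.16 and -0.76 ± 0.16. Mtf1 itself did not pass in any comparison, with group means from 40.3 to 43.1 CPM. In Treg 3 of the 16 were higher and 7 lower than in fresh CD5lo cells, and 3 higher and 8 lower than in fresh CD5hi cells. Slc30a4 differed by -1.48 ± 0.09 and -1.21 ± 0.09, and Slc39a13, an importer gene, was higher by 1.04 ± 0.10 and 1.07 ± 0.10. Importer and exporter genes thus moved in both directions, while the metallothionein genes were at 0 after resting and had their highest counts in Treg.

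Genes induced by cell handling were followed as a check on preparation. Of 7 tested (Fos, Fosb, Jun, Junb, Hspa1a, Hspa1b and Dnajb1), 1 rose and 4 fell on resting in CD5lo cells, and 1 rose and 1 fell in CD5hi cells. Fos rose by 1.4 ± 0.25 and 1.66 ± 0.25. Hspa1b, an inducible heat shock gene, ranged from 1.52 to 63.8 CPM in fresh CD5lo and from 0.227 to 0.543 in rested CD5lo libraries, so fresh libraries differed widely in it. In Treg 2 were higher than in fresh CD5lo and 3 than in fresh CD5hi cells. Jun was lower in fresh CD5hi than in fresh CD5lo cells, at 8.22 ± 3.19 against 30 ± 8.82 CPM (-1.86 ± 0.32; edgeR adjusted p = 0.00024). Fosb was higher in rested CD5hi than in rested CD5lo cells (1.61 ± 0.25; adjusted p = 0.00014) and was called in the interaction (1.51 ± 0.33; adjusted p = 0.043). Their part in the members' values was not tested.

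For members whose highest group mean was at least 2 times the lowest, the 2 genes nearest in pattern over the 5 group means were sought among 8549 genes, by the root-mean-square difference of centred log2 levels. Nfe2l2 was nearest to Adcy6 and Slc25a23 (both 0.08), which fell to 47.7 and 36.1 CPM in Treg. Srxn1 was nearest to Zcchc18 and Hip1 (both 0.13), at 22.4 and 14.5 CPM in Treg and at most 1.47 in the naive groups. Mt1 was nearest to Ube2l6 (0.10) and Whrn (0.11), Mt2 to Dapp1 (0.06) and Vamp5 (0.07), and Nqo1 to Prrt2 and Smyd2 (both 0.19). With 5 points and a pseudocount of 0.1 CPM that sets the span of the weakest members, these are descriptions.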

How the data were processed

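Transcripts were sequenced with 50-base paired reads from TruSeq mRNA libraries, per the labels. The main table, as deposited, holds raw read counts by gene symbol for 20 libraries. The submitters' processing notes list mm9 as the build and, as tools, edgeR, featureCounts 1.4.5 (Subread) and TopHat2 2.0.11. Strandedness and annotation were not given in the sources used here, so antisense partners cannot be told apart. Among counts of 1 to 10, 62.3 to 66.2% per library were even, so mates appear to have been counted singly. The authors' second table, a normalized signal for 10147 genes, holds 6 of the members and was used to check the counts. It was proportional to them within each library (largest relative deviation 2.4e-08).

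Counts were fitted with edgeR 4.0.16 in R 4.3.3 (filterByExpr, TMM, quasi-likelihood, 1 factor with 5 levels, 15 residual degrees of freedom), with Benjamini-Hochberg adjustment over 13309 genes. The SE is the log2 fold change over the square root of F, and is unreliable near 0. The fit was tested on simulated data. Alternatives were DESeq2 1.42.0, other filters, the compared groups alone, sex as a covariate, libraries with Y-linked reads alone, single libraries left out and a replicate block. Same-numbered CD5lo and CD5hi libraries deviated together (r = 0.34 to 0.62 when fresh, 0.39 to 0.83 when rested, over 10888 genes). Differently numbered ones reached r = 0.15 when fresh and 0.61 when rested. All same-numbered pairs exceeded this except rested replicate 4, at 0.39. Numbers were thus taken to pair them within a state, with less ground for rested replicate 4. They did not pair fresh with rested libraries (r = -0.18 to 0.16). Same-numbered Treg libraries had r = -0.01 to 0.67 with rested CD5lo and 0.21 to 0.59 with rested CD5hi libraries. With fresh CD5lo and CD5hi libraries they had r = -0.21 to 0.06 and -0.1 to 0.02. Differently numbered Treg libraries reached r = 0.27 with rested CD5lo and 0.28 with rested CD5hi libraries. Replicate 3 alone exceeded this with rested CD5lo, and all but replicate 2 (0.21) with rested CD5hi libraries. The highest r, 0.67 and 0.59, was that of replicate 3, the sole library with Y-linked reads in these groups. The part of sex in this was not tested. Treg numbers did not go with the fresh libraries. If Treg and rested libraries form a set, each test of Treg against fresh cells crosses sets. The printed SEs and p-values are from the fit without a replicate block, which was an alternative. Replicates are called biological, but no label ties them to separate animals, so p-values measure only the spread between these libraries.

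The members, lists and tests were chosen with earlier results of these data known. Named list genes are up to 4 per list and comparison with the largest called change and at least 1 CPM in the higher group; a few others, with values that did not pass or that clarify a contrast, were chosen after their values were seen. Members under 10 CPM are also given as ratios of summed counts with exact 95% binomial intervals and a floor of 3 counts per group. Promoters are RefSeq windows of GRCm38.p6, which is not the build of the counts.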

Additional observations from a re-analysis of the deposited data

Results flagged for a closer look

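A single library stood apart from the other 3 of its group in 2 of 46 combinations of member and group, by Dixon's test at 95%, which chance gives in about 5% of groups. Srxn1 had 3.13 CPM in Treg replicate 1, against 2.35 to 2.45 CPM in the other Treg libraries. Mt2 had 0.0432 CPM, or 2 counts, in fresh CD5hi replicate 1 and 0 in the other fresh CD5hi libraries.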

How the results depend on the processing

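Of 937 alternative fits of single members, 907 kept their direction and side of the threshold, 6 lost a call, 10 gained one and 14 changed sign. None of the 14 was called in either fit. Leaving out single libraries moved Nqo1 between -0.42 and 0.39 in fresh CD5hi against fresh CD5lo cells (0.11 with all libraries), between -0.22 and 0.18 in rested against fresh CD5lo cells (-0.02 with all), and the interaction of Keap1 between -0.03 and 0.05 (0.01 with all). Gclc in Treg against fresh CD5hi cells turned from -0.05 to 0.02 in libraries with Y-linked reads only. Lost and gained calls stand beside their results, except that Nqo1 in rested against fresh CD5hi cells was also called with DESeq2 (1.05, adjusted p = 0.048) and with a replicate block over all groups (1.09, adjusted p = 0.035). The causes were not tested. The number of members called on resting was 4 to 5 in each CD5 group without single libraries.

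The replicate block within states changed no member's call. Over all genes it called 2396 in place of 1524 for fresh CD5hi against CD5lo cells, 1960 in place of 1092 for rested ones and 247 in place of 60 for the interaction. The compared groups alone gave 495 calls for rested CD5hi against CD5lo cells, DESeq2 gave 130 for the interaction, and leaving out single libraries gave 36 to 90. Depth limits Nqo1, Srxn1, Mt1 and Mt2, whose naive levels rest on few counts.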
